A study of Mus musculus with 11 samples.

Results

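Leukocytes leave the blood by holding on to the vessel wall, and 9 genes for the proteins that make this contact were followed here through single cells of the aged mouse lung. They were taken by symbol out of the 31053 genes of the deposited count tables. On the endothelial side stand the selectins Sele (E-selectin) and Selp (P-selectin), the immunoglobulin-family ligands Vcam1, Icam1 and Icam2, and Pecam1, a molecule of endothelial cell contacts. On the leukocyte side stand the integrin subunits Itga4, Itgal and Itgb2. As background, selectins slow a leukocyte by binding carbohydrates on its surface, and integrins then hold it: the Itga4 subunit is part of the receptor for Vcam1, and Itgal with Itgb2 forms LFA-1, which binds Icam1 and Icam2. Sele and Vcam1 are known for their induction by inflammatory cytokines through NF-kB, and P-selectin is also stored in platelets and in granules of endothelial cells. The lung is known for leukocytes that arrest in its capillaries as well as in its venules.

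The 11 libraries came from lungs of mice of 4 genotypes. The labels give 1 wild type library (+/+, called WT), 3 of p21 heterozygotes (+/-, p21Het), 5 with the genotype +/mTert (p21mTert) and 2 with +/mTertCD (p21mTertCD). The gene p21 is Cdkn1a, a cell cycle inhibitor, and Tert is the catalytic subunit of telomerase. As background on these mice, Tert was placed under the control of the p21 locus, so that every group other than WT carries 1 altered p21 allele; the labels do not spell out CD. The age given is 18 months, except for p21Het library 1 (19 months) and p21mTert library 1 (20 months), whose titles nevertheless give the same age as all others. The titles of WT and of these 2 libraries carry no replicate number and were numbered 1, whereas the other 8 carry one. Whole lungs were digested with dispase and collagenase and the red cells were lysed. No label says that libraries came from separate animals, so p-values measure the spread between these libraries. Tert stood at 0.545 to 0.842 UMIs per 1000000 in the p21Het libraries, 2.00 to 3.28 in p21mTert and 1.90 to 2.59 in p21mTertCD, and 1.13 in WT, so that all 7 libraries with an mTert or mTertCD allele lay above the 3 p21Het libraries. Cdkn1a stood at 136.0 to 187, at 124 to 160.1 and at 118 to 174 in the same groups, and at 155 in WT.

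A unique molecular identifier (UMI) marks 1 captured RNA molecule, and levels are UMIs per 1000000 (CPM) of a library's cells of 1 lineage. The 81983 barcodes held 694524094 UMIs, 42038434 to 85988955 per library, and 69267 barcodes were kept (total UMIs between 1000 and 30000, mitochondrial share no higher than 14%). The median mitochondrial share of kept cells was 6.30% to 6.58% in the 3 libraries without a number and 2.82% to 4.28% in the 8 others. Compartments and, where possible, lineages within them were assigned from marker genes, none of them among the 9, and are written "-like" for that reason. A compartment was given to 61802 cells, of which 6805 were endothelial-like. Among these were 4328 general capillary (gCap-like), 813 aerocyte capillary (aCap-like), 440 arterial-like, 728 venous-like and 297 lymphatic-like cells, and the rest had no subtype. All markers of each of these subtypes were at 10 CPM or more in it, but 49.5% of the arterial-like cells lay within 1 marker of another assignment, against 24.5% of the venous-like and 24.1% of the gCap-like cells. Libraries with under 20 cells of a lineage were left out of its values: p21Het library 3 with 11 aCap-like and 11 arterial-like cells, and for lymphatic-like cells WT with 11 and p21Het library 3 with 16. Pairs of libraries shared 9 to 83 cell barcodes. The cell makeup of 2 libraries stood apart. In p21Het library 3 there were 1468 neutrophil-like and 11 aCap-like cells, against 237 to 882 and 27 to 141 in the others, and p21mTertCD library 1 held 2303 T-like and 105 B-like cells, against 678 to 1456 and 900 to 2293 in the others.

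The upstream sequences of Sele, Selp and Icam1 are shown first, because a search for NF-kB motifs turned on these 3 windows. RefSeq windows (GRCm38.p6) existed for 4 of the 9 genes, and the 250 bases before the RefSeq start were searched on both strands. The full NF-kB consensus was in none of the 4 windows and in 3.90% of 32851 windows of all genes. A looser spelling, GGNNNTTCC, tried after the first had no match, was in the windows of Sele, Selp and Icam1, not in that of Itga4, and in 15.7% of all windows. A match describes letters, not a bound site. Capitals mark the matches, 145 bases before the start in Sele (chr1:164047984-164048233, plus strand), 14 before it in Selp (chr1:164115014-164115263, plus strand), and 153 and 84 before it in Icam1 (chr9:21015690-21015939, plus strand). The Selp match and the Icam1 match 84 bases before the start spell the motif on the minus strand, so their printed letters are its reverse complement. The Icam1 window ends at 21015939, ahead of the GENCODE start of 21015985 given below. Sele and Selp are neighbours on chromosome 1 in the same orientation.
Sele: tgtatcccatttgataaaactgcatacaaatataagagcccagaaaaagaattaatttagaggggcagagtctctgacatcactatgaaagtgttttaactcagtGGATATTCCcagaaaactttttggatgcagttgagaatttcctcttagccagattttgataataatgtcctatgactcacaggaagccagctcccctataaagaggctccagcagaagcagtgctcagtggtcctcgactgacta
Selp: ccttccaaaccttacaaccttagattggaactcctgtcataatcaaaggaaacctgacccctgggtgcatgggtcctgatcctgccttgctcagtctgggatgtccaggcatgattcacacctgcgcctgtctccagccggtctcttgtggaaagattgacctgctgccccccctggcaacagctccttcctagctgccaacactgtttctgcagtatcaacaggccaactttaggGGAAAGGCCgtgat
Icam1: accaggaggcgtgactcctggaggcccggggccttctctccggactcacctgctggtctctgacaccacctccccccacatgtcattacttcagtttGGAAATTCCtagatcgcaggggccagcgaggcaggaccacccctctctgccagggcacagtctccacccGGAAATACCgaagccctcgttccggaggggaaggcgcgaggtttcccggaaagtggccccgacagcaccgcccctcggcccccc

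The 9 genes divided by lineage (plot of the mean level by lineage). Shares of each gene's UMIs of gated cells (those given a compartment) were averaged over the 11 libraries together with their pooled share (plot of shares by compartment). By this mean, Selp, Sele, Icam2 and Pecam1 had 82.1%, 74.1%, 75.6% and 68.2% in endothelial-like cells. Vcam1 had 34.2% there, with 41.8% in immune-like and 23.7% in mesenchymal-like cells, and Icam1 had 24.3% there, with 45.8% in immune-like and 26.8% in epithelial-like cells. The 3 integrin genes had 99.0% to 99.6% of their UMIs of gated cells in immune-like cells. These shares follow the number of cells of each type as well as their levels, and the endothelial share of Vcam1 ran from 16.5% to 52.6% over libraries.

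**Figure D1:**
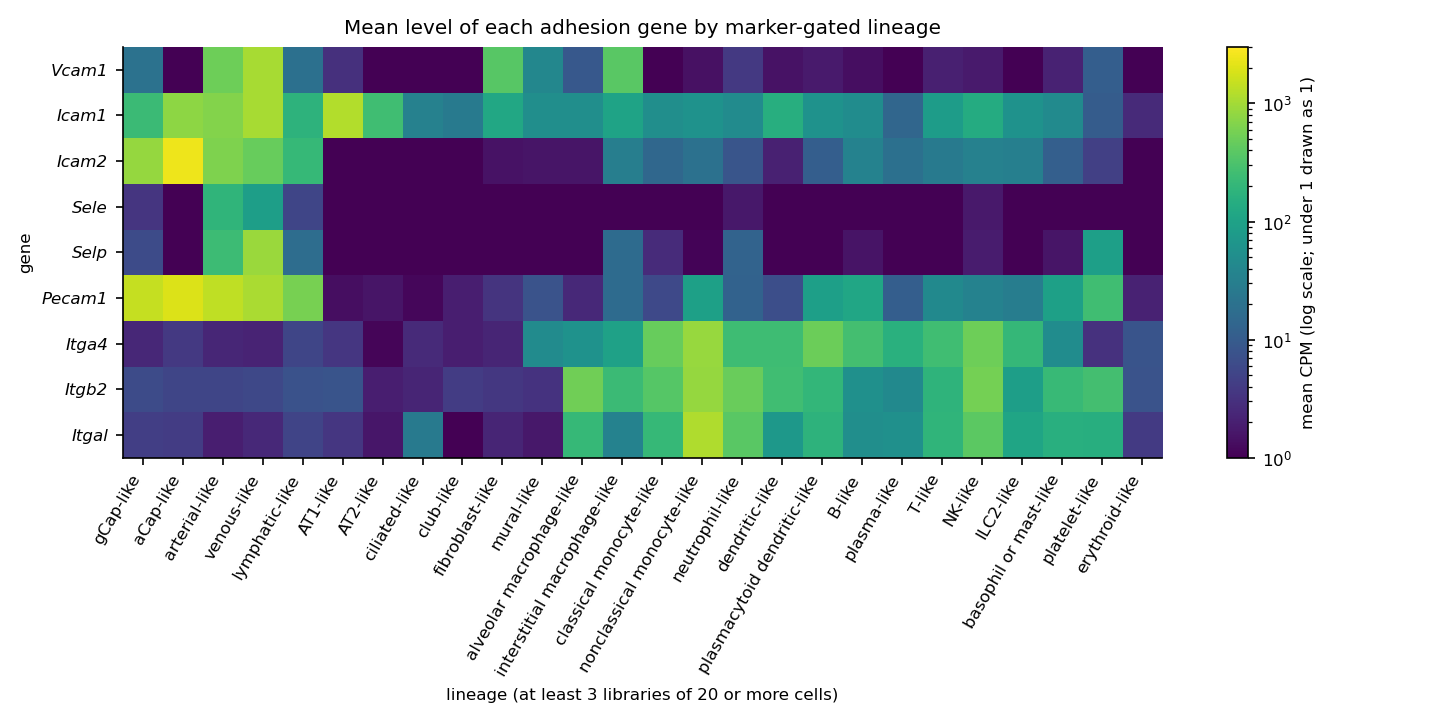
Mean level of each of the 9 genes (rows) in each marker-gated lineage (columns), in CPM on a log colour scale, over the libraries with at least 20 cells of that lineage. Icam2 and Pecam1 are brightest in the 5 endothelial columns on the left, and Sele and Selp in the arterial-like and venous-like columns among them. Vcam1 is brightest in venous-like cells and also bright in interstitial macrophage-like and fibroblast-like cells, and Icam1 is brightest in AT1-like cells. The integrins are brightest in the immune columns, with all 3 highest in nonclassical monocyte-like cells.

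Selp, which binds P-selectin glycoprotein ligand on leukocytes, averaged 913 ± 339 CPM in venous-like cells (SD, n = 11 libraries), 242 ± 142 in arterial-like cells (n = 10), 6.14 in gCap-like cells and 1.00 in aCap-like cells. The venous-like and arterial-like ranges overlapped, but Selp was higher in the venous-like cells of all 10 libraries that had both. Venous-like cells, 728 in number, held 69.1% of all Selp UMIs of gated cells. Selp UMIs were found in 36.4% of venous-like cells at a median depth of 4817.5 UMIs, in 0.716% of gCap-like cells at 3253 UMIs, and in 0.606% of B-like cells, which serve as a background for free RNA, at 4118 UMIs. After thinning each cell to 1000 UMIs these shares were 21.02%, 0.185% and 0.153%. The venous-like share was thus far above that of B-like cells. The gCap-like share was close to it, while the mean level of Selp was 6.14 CPM in gCap-like and 1.55 CPM in B-like cells. In the paired comparison with gCap-like cells (2-sided exact sign-flip permutation test over libraries, Benjamini-Hochberg adjusted over 39 such tests), Selp was higher in venous-like cells by 7.35 on the log2(CPM + 1) scale, in 11 of 11 libraries, with an exact p of 0.00098, the smallest 11 libraries can give, and an adjusted p of 0.00224. It was higher in arterial-like cells by 5.19 in 10 of 10 libraries (exact permutation test, adjusted p = 0.00305). In aCap-like cells Selp differed by -2.01, lower in 9 of 10 libraries (exact, adjusted p = 0.00525), with both levels low. With cells gated by the share of marker UMIs that difference was -0.21 and did not pass (exact, adjusted p = 0.708). Outside the endothelium Selp reached 91.1 CPM in the platelet-like cells of the 3 libraries with enough of them. It averaged 16.3 CPM in interstitial macrophage-like and 12.7 CPM in neutrophil-like cells. Platelet markers summed to 0 to 12.5 CPM in the venous-like cells of the 11 libraries.

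Sele, the selectin made by activated endothelium, was low in general. It averaged 88.5 ± 54.8 CPM in venous-like cells (SD, n = 11) and 189 ± 303 CPM in arterial-like cells (n = 10, median 107). The 2 lineages could not be ordered: Sele was higher in arterial-like cells in 4 of 10 libraries. In arterial-like cells it was 144.5 CPM in WT, 32.1 and 1005.5 in p21Het libraries 1 and 2, 9.5, 328.4, 78.1, 140.7 and 11.4 in p21mTert libraries 1 to 5, and 135.3 and 5.9 in p21mTertCD libraries 1 and 2. Thus p21Het library 2 stood far above the rest. Its 214 Sele UMIs came from 8 of 36 cells, and the value was 648 CPM without the Sele UMIs of the cell with most. Sele was 0 in the aCap-like cells of every library, which over the 813 cells allows a level of up to 0.785 CPM (3 counts, counting error only). A Sele UMI was found in 12.5% of arterial-like and 8.79% of venous-like cells, and in 0.162% of gCap-like and 0.459% of B-like cells, or 4.32%, 3.16%, 0.0693% and 0.120% after thinning. Compared with gCap-like cells, Sele was higher by 5.22 in venous-like cells of 11 of 11 libraries (exact permutation test, adjusted p = 0.00224) and by 5.05 in arterial-like cells of 10 of 10 (exact, adjusted p = 0.00305). The gCap-like mean was only 3.43 CPM, and over settings other than leaving out a library the venous-like difference ran from 3.51 to 7.49. With cells gated by the share of marker UMIs, 3 libraries had enough arterial-like cells and the arterial-like difference was 1.35. The exact test cannot pass with 3 libraries, where the smallest p is 0.25. For aCap-like cells the difference was -1.05 and did not pass (exact, adjusted p = 0.148).

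Vcam1, the ligand of the integrin that holds Itga4, was highest in venous-like and arterial-like cells within the endothelium. Its level was 1060.5 ± 374 CPM in venous-like cells (SD, n = 11), 513 ± 329 in arterial-like cells (n = 10), 20.2 ± 9.10 in gCap-like cells (n = 11) and 0.84 in aCap-like cells (n = 10). The venous-like and arterial-like ranges overlapped, and Vcam1 was higher in the venous-like cells of 9 of the 10 libraries that had both. In gCap-like cells Vcam1 was 18.7 CPM in the WT library, 24.1, 29.1 and 7.6 in the 3 p21Het libraries, 38.3, 10.99, 8.4, 21.5 and 24.1 in the 5 p21mTert libraries, and 19.0 and 20.6 for p21mTertCD. In venous-like cells it was 816.7 CPM in the WT library, 1104.1, 877.3 and 1656.9 in the 3 p21Het libraries, 595.3, 698.5, 1085.4, 1154.7 and 659.1 in the 5 p21mTert libraries, and 1624.2 and 1393.3 for p21mTertCD. The lowest venous-like value therefore exceeded the highest gCap-like value in these libraries. The paired difference was 5.70 ± 1.02 on the log2(CPM + 1) scale (SD, n = 11), positive in 11 of 11 libraries (exact sign-flip permutation test, adjusted p = 0.00224). Against gCap-like cells, arterial-like cells were higher by 4.39 in 10 of 10 libraries and aCap-like cells differed by -3.94 (both exact, adjusted p = 0.00305). Vcam1 UMIs were seen in 61.7% of venous-like, 41.1% of arterial-like, 3.19% of gCap-like and 0.512% of B-like cells, or 33.4%, 16.8%, 1.27% and 0.107% after thinning. The gCap-like share thus stayed above that of B-like cells. Mesenchymal markers followed the same order as Vcam1, with summed means of 829 CPM in venous-like, 683 in arterial-like, 46.6 in gCap-like and 16.2 in aCap-like cells. Of these, Bgn alone gave 786 CPM in venous-like and 442 in arterial-like cells. The 11 others summed to 42.7 CPM in venous-like, 241.0 in arterial-like (228.7 of it Tagln), 17.7 in gCap-like and 10.1 in aCap-like cells, with the fibroblast marker Col3a1 at 13.2 in venous-like and 0.97 in gCap-like cells. Their part in the Vcam1 order was not tested. For lymphatic-like cells the difference was -2.31, with 7 of 9 libraries lower (exact, adjusted p = 0.0344). That call was lost on leaving out p21Het library 2, p21mTert library 1, 2, 3 or 5, or either p21mTertCD library (differences of -2.36 to -2.02, exact, adjusted p of 0.0590 to 0.0688), and with cells gated by the share of marker UMIs the difference was 3.63.

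Vcam1 also marked cells outside the vessels. Interstitial macrophage-like cells averaged 392 ± 117 CPM (n = 11) and fibroblast-like cells 379 ± 55.2, and their ranges overlapped. Pooled over libraries, these macrophage-like cells held 38.2% of all Vcam1 UMIs of gated cells, venous-like cells 23.4% and fibroblast-like cells 23.2%. By library the share of Vcam1 UMIs in all immune-like cells ran from 21.1% in WT to 70.8% in p21mTertCD library 1. By library the macrophage-like level of Vcam1 was 157.4 CPM in the WT library, 227.2, 369.5 and 462.1 in the 3 p21Het libraries, 343.5, 450.9, 415.3, 380.8 and 567.2 in the 5 p21mTert libraries, and 470.3 and 462.7 for p21mTertCD. WT was the lowest, with 1 library and so no test. Next in order came mural-like cells with 40.6 CPM, whose range did not overlap that of fibroblast-like cells.

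Icam1, the inducible ligand of LFA-1, had the broadest distribution. It was highest in type 1 alveolar epithelial (AT1-like) cells with 1206 ± 163 CPM (SD, n = 5 libraries with enough cells), followed by venous-like cells with 1047 ± 279, aCap-like cells with 779 ± 136, arterial-like cells with 680 ± 259, type 2 alveolar (AT2-like) cells with 259 ± 23.7 and gCap-like cells with 236 ± 76.7. Each neighbour in that order overlapped the next in range; Icam1 was higher in the AT1-like than in the venous-like cells of all 5 libraries with both. AT2-like cells, with a median of 20591.5 UMIs each, held 21.7% of the Icam1 UMIs of gated cells. The gCap-like level of Icam1 was 156.7 CPM in the WT library, 200.8, 368.1 and 150.5 in the 3 p21Het libraries, 357.6, 163.2, 185.0, 218.2 and 237.3 in the 5 p21mTert libraries, and 276.2 and 278.7 for p21mTertCD. Against gCap-like cells Icam1 was higher by 2.16 in venous-like, 1.71 in aCap-like and 1.43 in arterial-like cells, in 11 of 11, 10 of 10 and 9 of 10 libraries, with adjusted p of 0.00224, 0.00305 and 0.00525 by the exact sign-flip permutation test. With cells gated by the share of marker UMIs the arterial-like difference was 0.57 in 3 libraries, too few for the exact test to pass. In lymphatic-like cells it differed by -0.58 (exact, adjusted p = 0.0344). This call was lost without p21Het library 1 or 2, p21mTert library 1 or 2, or either p21mTertCD library (-0.56 to -0.48, exact, adjusted p of 0.0667 to 0.0688), and with cells gated by the share of marker UMIs the difference was 0.76.

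Icam2, a constitutive LFA-1 ligand, and Pecam1 ran the other way along the vessels. Icam2 averaged 2479 ± 245 CPM in aCap-like cells (SD, n = 10), 842 ± 107 in gCap-like cells (n = 11), 637 ± 90.0 in arterial-like cells, 462 ± 71.8 in venous-like cells and 212 ± 41.7 in lymphatic-like cells (n = 9). The aCap-like values of Icam2 ran from 2100.2 to 2892.2 CPM and lay above every gCap-like value, of which the highest was 1052.5. The order aCap, gCap, arterial, venous, lymphatic held for each neighbouring pair in every library that had both. Against gCap-like cells the differences were 1.55 for aCap-like, -0.41 for arterial-like, -0.87 for venous-like and -1.97 for lymphatic-like cells, all passing (exact permutation test, adjusted p = 0.00224 to 0.00525). The next lineage after these 5 was B-like at 35.1 CPM.

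Pecam1 had the narrowest range of differences over the subtypes among the 6 genes, from -1.34 to 0.42 relative to gCap-like cells on the log2(CPM + 1) scale. It was 1975 ± 242 CPM in aCap-like, 1478 ± 121 in gCap-like, 1404 ± 161 in arterial-like, 1101 ± 96.7 in venous-like and 578 ± 58.0 in lymphatic-like cells. Pecam1 was higher in aCap-like than gCap-like cells by 0.42 (10 of 10 libraries) and lower in venous-like cells by a difference of -0.42 (11 of 11) and in lymphatic-like cells by -1.34 (9 of 9), each passing the exact permutation test with adjusted p of 0.00305, 0.00224 and 0.00525. Arterial-like and gCap-like cells differed by -0.07, 5 of 10 libraries each way (exact, adjusted p = 0.400). B-like cells, at 113 CPM, held 15.3% of the Pecam1 UMIs of gated cells. In all, 20 of the 24 endothelial tests over the 6 genes passed. By mean level, venous-like cells thus combined the highest Vcam1 and Selp with the lowest Icam2 among the blood endothelial subtypes. Venous-like and arterial-like cells were not tested against each other. The aCap-like cells showed the highest mean Icam2 and Pecam1 with Sele at 0.

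**Figure D2:**
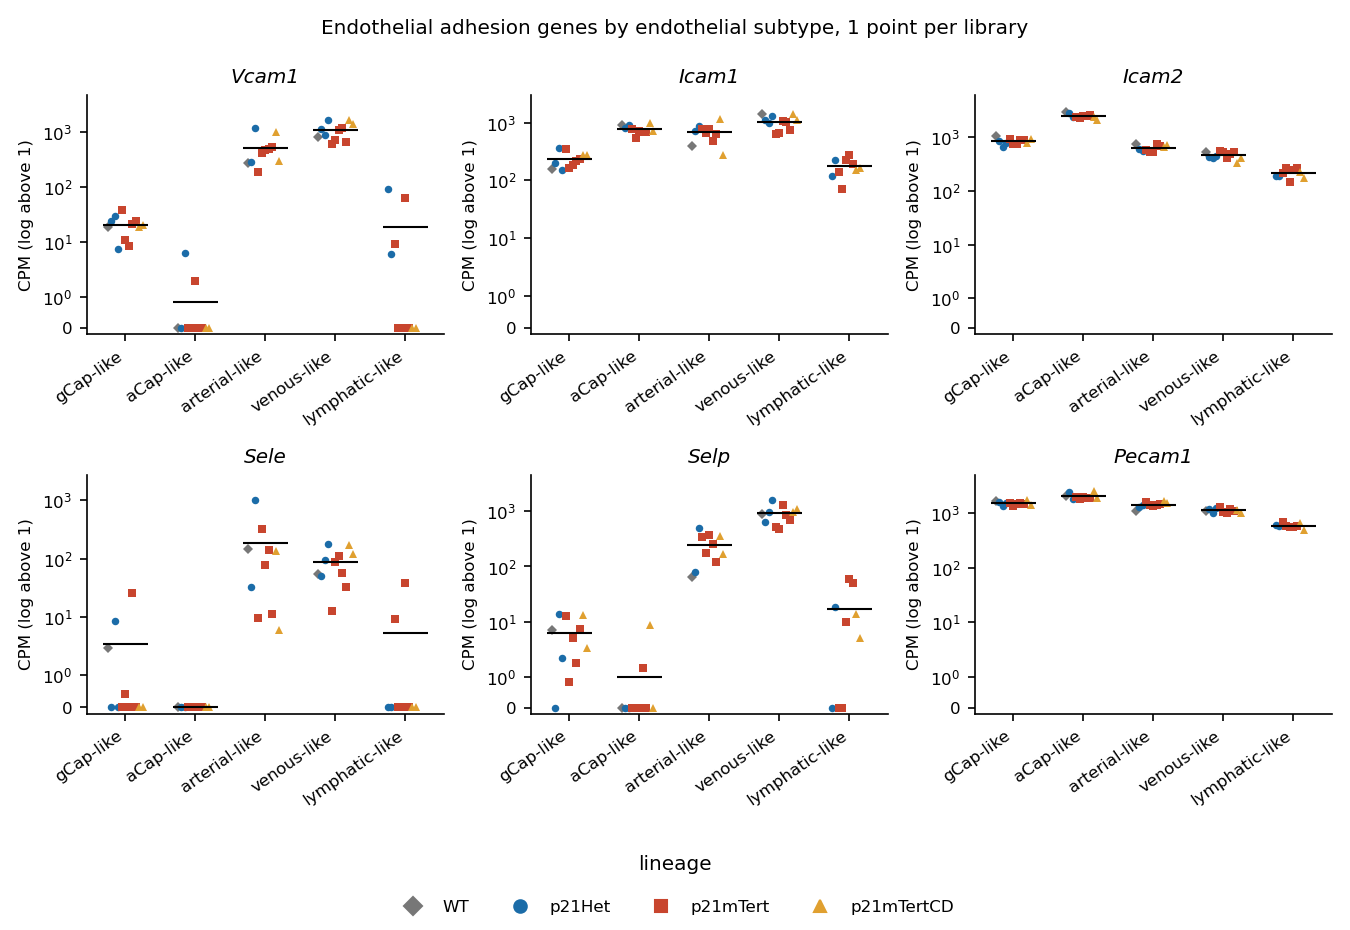
Level of the 6 endothelial genes (y axis, CPM, linear from 0 to 1 and log above) in 5 endothelial subtypes, 1 point per library with at least 20 cells, coloured by genotype, with a line at the mean. Vcam1, Sele and Selp are higher in venous-like than in gCap-like cells (1060.5 against 20.2 CPM for Vcam1), while Icam2 falls from 842 to 462 CPM.

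Within venous-like cells Selp and Icam1 were seen at a higher share in the cells that held Vcam1, and Sele in those that held Selp. Of the 449 venous-like cells with a Vcam1 UMI, 51.2% also had Selp, against 12.5% of those without one, and Icam1 was seen in 78.4% against 47.7%. Sele was seen in 22.3% of the 265 cells with Selp and in 1.08% of the others. Cells with Vcam1 had a median of 6019 UMIs and cells without it 3440, so depth moved with these shares and its part was not tested. In arterial-like cells Selp was seen in 48.6% of the cells with Vcam1 and in 4.25% of the others, at median depths of 7095 and 3248 UMIs.

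The integrins were highest in nonclassical monocyte-like cells, the patrolling monocytes of the circulation. Itga4 averaged 867 ± 89.3 CPM there (SD, n = 11), followed by NK-like cells with 509 ± 83.3, plasmacytoid dendritic-like cells with 492 (3 libraries with enough cells) and classical monocyte-like cells with 462 ± 51.1. The nonclassical monocyte-like range of Itga4 did not overlap that of NK-like cells, and classical monocyte-like cells did not overlap the next large lineage, B-like cells at 276 CPM. T-like cells (256 ± 99.5) and neutrophil-like cells (248 ± 59.8) overlapped B-like cells. Alveolar macrophage-like cells, which live on the airspace side, were far lower at 59.9 ± 13.3. Compared with them Itga4 was higher in all 5 lineages tested, in 11 of 11 libraries each (exact sign-flip permutation test, adjusted p = 0.00224): by 3.08 in NK-like, 2.95 in classical monocyte-like, 2.20 in B-like, 2.02 in T-like and 2.01 in neutrophil-like cells.

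Itgb2, the beta subunit that LFA-1 shares with other leukocyte integrins, did not set alveolar macrophage-like cells apart in that way. It averaged 836 ± 88.3 CPM in nonclassical monocyte-like, 557 ± 62.8 in NK-like, 525 ± 53.4 in alveolar macrophage-like, 479 ± 44.9 in neutrophil-like, 360.1 ± 31.5 in classical monocyte-like, 183 ± 52.2 in T-like and 55.1 in B-like cells (SD, n = 11). Against alveolar macrophage-like cells Itgb2 differed by 0.08 in NK-like (exact, adjusted p = 0.319) and by -0.13 in neutrophil-like cells (exact, adjusted p = 0.138), neither passing. Over every deposited barcode the neutrophil-like difference of Itgb2 was -0.23 and passed (exact, adjusted p = 0.0127), as did the NK-like one, 0.25, with the mean taken over cells (exact, adjusted p = 0.0131). Its differences of -0.54 in classical monocyte-like, -1.55 in T-like and -3.24 in B-like cells passed the same exact permutation test with an adjusted p of 0.00224.

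Itgal, the alpha subunit of LFA-1, averaged 1153 ± 204 CPM in nonclassical monocyte-like cells, 398 ± 55.1 in NK-like, 391 ± 62.0 in neutrophil-like, 214 ± 37.4 in alveolar macrophage-like, 212 ± 23.0 in classical monocyte-like, 189.5 ± 46.2 in T-like and 51.8 in B-like cells (SD, n = 11). Itgal was higher than in alveolar macrophage-like cells by 0.90 in NK-like and 0.87 in neutrophil-like cells and differed by -2.01 in B-like cells, all passing with an adjusted p of 0.00224 in the exact permutation test. The differences of 0.00 in classical monocyte-like cells (exact, adjusted p = 0.994) and -0.18 in T-like cells (exact, adjusted p = 0.263) did not pass. Without p21mTertCD library 1 the T-like difference of Itgal was -0.30 and passed (exact, adjusted p = 0.0152). In total 11 of the 15 integrin tests passed.

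**Figure D3:**
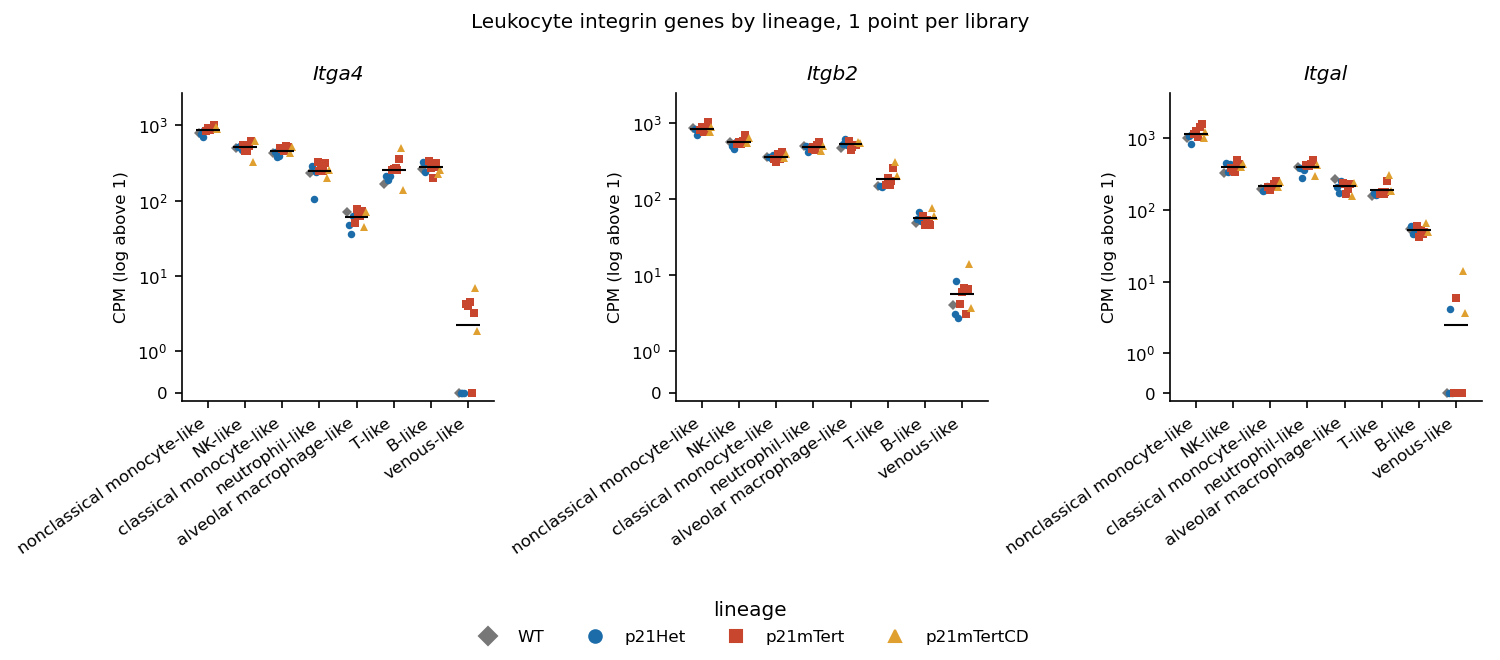
Level of Itga4, Itgb2 and Itgal (y axis, CPM, linear from 0 to 1 and log above) in 7 leukocyte lineages and in venous-like cells, 1 point per library, coloured by genotype, with a line at the mean. Nonclassical monocyte-like cells are highest in all 3 panels (867, 836 and 1153 CPM), and the venous-like points lie near 0.

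The first genotype question was whether the mTert allele at the p21 locus moved these genes, with p21Het as the control. Over all endothelial-like cells Vcam1 was 181.6 CPM in the WT library, 249.5, 188.2 and 423.7 in the 3 p21Het libraries, 149.4, 132.4, 201.0, 244.0 and 177.8 in the 5 p21mTert libraries, and 284.5 and 348.6 for p21mTertCD. Of the 5 p21mTert values of Vcam1, 3 lay below the lowest p21Het value and 2 overlapped the p21Het range. In edgeR's quasi-likelihood test on UMIs summed per library the p21mTert minus p21Het log2 difference was -0.62 ± 0.22 (SE), and the Benjamini-Hochberg adjusted p was 1.00. Without p21Het library 3 it was -0.24, and among the 8 numbered libraries it was -0.68. The libraries without a number hold 1 per group and give no value of their own. None of the 6 endothelial genes passed an adjusted p of 0.05, where 0.0274% of the 10933 genes tested did. At an unadjusted p under 0.05 edgeR named 1 of the 6, beside 470 of the 10933 genes, and DESeq2 named 2, beside 253 of them. After adjustment DESeq2 called 0 of the 6, beside 8 of all genes. None of the 6 was without overlap between the groups, where 2.08% of all genes were. Selp differed by -0.61 ± 0.37, Sele by -0.86 ± 0.56, Icam1 by -0.19 ± 0.12 and Icam2 by 0.21 ± 0.10 (edgeR). The sign of the Selp difference turned without p21Het library 3 (0.08), as did that of Sele without p21Het library 2 (0.04). Without p21Het library 2 the Icam1 difference was -0.06, and without p21Het library 3 the Icam2 difference was 0.12.

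By library the endothelial-like level of Selp was 165.7 CPM in the WT library, 117.5, 147.4 and 400.2 in the 3 p21Het libraries, 135.2, 74.6, 212.6, 162.5 and 124.4 in the 5 p21mTert libraries, and 146.2 and 260.3 for p21mTertCD. As for Vcam1, p21Het library 3 was the highest of all 11. It is also the library with the most neutrophil-like and fewest aCap-like cells, and the part of this makeup in its values was not tested. Icam1 was 526.2 CPM in the WT library, 499.6, 516.9 and 467.4 in the 3 p21Het libraries, 502.9, 333.8, 454.0, 450.6 and 418.7 in the 5 p21mTert libraries, and 537.8 and 500.3 for p21mTertCD, with p21mTert library 2 the lowest. Pecam1 ran from 1262.2 to 1583.0 CPM over the 11 libraries, with both ends in p21mTertCD. These pooled values follow the mix of subtypes too. Venous-like cells were 9.08% to 13.5% of the endothelial-like cells in p21Het, 9.05% to 12.1% in p21mTert, and 6.67% and 17.0% in p21mTertCD. Arterial-like cells were 3.30% to 6.42% in p21Het and 6.35% to 9.34% in p21mTert. The part of this mix in the pooled differences was not tested, and the subtypes were therefore read on their own.

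In gCap-like cells 0 of the 5 genes tested passed between p21mTert and p21Het (edgeR, lowest adjusted p = 1.00), with 0 at an unadjusted p under 0.05, 0 called by DESeq2 and 0.0106% of 9418 genes called. Of all genes there, 370 were at an unadjusted p under 0.05 by edgeR, and DESeq2 called 3. Icam1 differed by -0.14 ± 0.27 and Icam2 by 0.16 ± 0.10, and the sign for Icam1 turned without p21Het library 2 (0.50). That library had the highest gCap-like Icam1 of all. No gene of the 6 was free of overlap there, against 1.97% of all genes. Icam2 was 1052.5 CPM in the WT library, 858.3, 667.5 and 781.6 in the 3 p21Het libraries, 919.7, 760.0, 753.4, 880.8 and 904.8 in the 5 p21mTert libraries, and 770.5 and 912.5 for p21mTertCD.

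A fit on venous-like cells was added after the levels above had been seen, since these cells carry most of the Selp and much of the Vcam1. Between p21mTert and p21Het none of the 6 genes passed (2 were at an unadjusted p under 0.05 by edgeR and 2 by DESeq2). None of the 6672 genes tested did either (0% called by edgeR and 0 by DESeq2). Of these genes, 348 were at an unadjusted p under 0.05 by edgeR and 108 by DESeq2. Vcam1 differed by -0.50 ± 0.23 (edgeR, adjusted p = 0.942), by -0.22 without p21Het library 3 and by -0.49 among the numbered libraries. Icam1 differed by -0.44 ± 0.20 (edgeR, adjusted p = 0.942), Selp by -0.46 ± 0.30, Sele by -0.74 ± 0.42 and Icam2 by 0.24 ± 0.15. The Selp and Sele differences were -0.07 and -0.23 without p21Het library 3, and the Selp difference was -0.75 without p21Het library 1 and -0.78 without p21mTert library 3. All 6 overlapped between the groups, where 2.82% of all genes did not.

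The second question was whether the p21mTert and p21mTertCD alleles differed. In venous-like cells Vcam1 was lower in each of the 5 p21mTert libraries (at most 1154.7 CPM) than in either p21mTertCD library (1393.3 and 1624.2). The difference was -0.89 ± 0.26 (edgeR, adjusted p = 0.662), and it was -0.78 among the 8 numbered libraries, which were deposited with the p21mTertCD ones. Icam1 in venous-like cells was 1436.1 CPM in the WT library, 1104.1, 1000.3 and 1307.7 in the 3 p21Het libraries, 632.7, 663.2, 1087.6, 1012.2 and 746.7 in the 5 p21mTert libraries, and 1415.1 and 1113.9 for p21mTertCD. Here too every p21mTert value was under both p21mTertCD values, with a difference of -0.66 ± 0.23 (edgeR, adjusted p = 0.768), which was -0.39 without p21mTertCD library 1. Sele differed by -1.11 ± 0.49 (edgeR, adjusted p = 0.876) and Icam2 by 0.38 ± 0.18 (edgeR, adjusted p = 0.913), both without overlap. The Sele values rest on few cells: in p21mTertCD library 1, 21 of 25 Sele UMIs came from 1 cell, and in library 2, 28 of 66. The Sele UMIs of the cell with most were then left out in each library, while its other UMIs stayed in the total. The 2 values were 27.9 and 69.4 CPM and the p21mTert values 4.16 to 76.6, so that the groups overlapped. The p21mTert values of Icam2 were 557.8, 534.1, 412.1, 494.0 and 522.7 CPM, against 334.6 and 407.2.

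So 4 of the 6 genes, Vcam1, Icam1, Sele and Icam2, did not overlap between p21mTert and p21mTertCD in venous-like cells, where 11.2% of all genes did not, and Selp (-0.45 ± 0.35) and Pecam1 overlapped. For Sele this rested on single cells, as given above. Without p21mTert library 3 the Selp difference was -0.77. None of the 6 passed (edgeR), nor did any of the 6672 genes (0% called, DESeq2 0). At an unadjusted p under 0.05 edgeR had 4 of the 6, beside 356 of all genes, and DESeq2 had 2, beside 159. The 4 genes without overlap were read in the same 7 libraries, and p21mTertCD library 1 gave only 23 venous-like cells. Summed mesenchymal markers in the venous-like cells were 594 to 912 CPM for p21mTert, 845 to 997 for p21mTertCD, 783 to 937 for p21Het and 1116 for WT, and their part in these differences was not tested. Over all endothelial-like cells the Vcam1 difference was -0.86 ± 0.25 (edgeR, adjusted p = 0.354) and the Icam1 difference -0.34 ± 0.14 (edgeR, adjusted p = 0.663), or -0.20 for Icam1 without p21mTertCD library 1. There 0 of the 6 passed, with 0 by DESeq2, against 0.119% of genes called by edgeR and 56 genes called by DESeq2. At an unadjusted p under 0.05 edgeR had 2 of the 6, beside 778 of the 10933 genes tested. Vcam1 and Icam2 did not overlap, against 11.3% of all genes. In gCap-like cells 0 of 5 passed (edgeR, with 0 at an unadjusted p under 0.05 and 0 by DESeq2), where 0.265% of genes did. Of all genes there, 567 were at an unadjusted p under 0.05 by edgeR, and DESeq2 called 51.

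**Figure D4:**
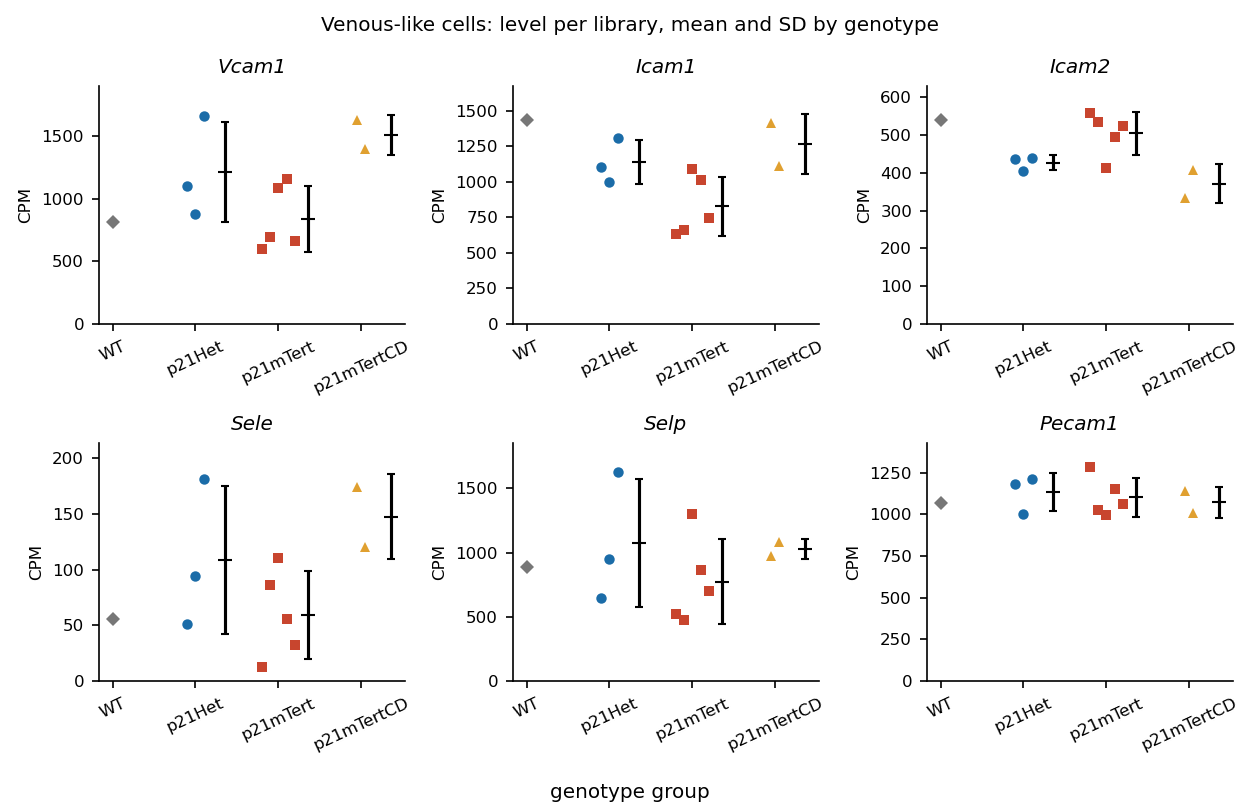
Level of the 6 endothelial genes in venous-like cells (y axis, CPM), 1 point per library by genotype, with mean and SD beside each group of at least 2 libraries. For Vcam1 the p21mTert points (595.3 to 1154.7) lie below both p21mTertCD points (1393.3 and 1624.2) and overlap the p21Het points (877.3 to 1656.9); no difference passed the adjusted test.

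Between p21mTertCD and p21Het no endothelial gene passed in endothelial-like, gCap-like or venous-like cells (edgeR, 0 of 6, 0 of 5 and 0 of 6), against 0.00915%, 0.212% and 0% of all genes. DESeq2 called 0 in each, beside 31, 36 and 0 of all genes. At an unadjusted p under 0.05 edgeR had 0 in each, beside 509, 438 and 283 of all genes. DESeq2 had 1 in gCap-like cells, beside 253 of 9418 genes. It had 0 in endothelial-like and venous-like cells, beside 318 and 100 of all genes. These contrasts share libraries with the other 2. In venous-like cells Selp was 887.7 CPM in the WT library, 649.3, 953.2 and 1624.4 in the 3 p21Het libraries, 520.3, 477.4, 1297.0, 866.8 and 704.5 in the 5 p21mTert libraries, and 975.9 and 1084.7 for p21mTertCD, so that the p21mTertCD values lay inside the p21Het range. The Sele values were 55.2 CPM in the WT library, 50.9, 94.3 and 181.4 in the 3 p21Het libraries, 12.5, 86.1, 110.3, 56.1 and 32.5 in the 5 p21mTert libraries, and 174.3 and 120.5 for p21mTertCD.

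Of a list of 24 other endothelial genes for adhesion and transmigration, 21 were tested in endothelial-like cells and 0 passed between p21mTert and p21Het. Their median log2 difference was -0.00, as over all genes (-0.00). It was -0.05 in gCap-like (8 of 17 above 0) and -0.10 in venous-like cells (6 of 15 above 0), and against p21mTertCD it was -0.00, -0.15 (7 of 17 above 0) and -0.05 (7 of 15 above 0) in endothelial-like, gCap-like and venous-like cells. Of 22 NF-kB and cytokine response genes 18 were tested and 0 passed, with a median of -0.18 and 3 of 18 above 0. Against p21mTertCD the median of this list was -0.29, with 3 of 18 above 0, beside 0.01 over all genes. In venous-like cells 14 of these genes were tested, with medians of -0.22 (3 above 0) against p21Het and -0.34 (2 above 0) against p21mTertCD. For p21mTertCD minus p21Het the venous-like median was 0.21 (9 of 14 above 0), beside 0.08 in endothelial-like (10 of 18) and -0.03 in gCap-like cells (6 of 13). In gCap-like cells 13 were tested, with medians of -0.06 (6 above 0) against p21Het and -0.12 (4 above 0) against p21mTertCD. The list was also read in leukocytes for p21mTert minus p21Het. Its medians were 0.19 in neutrophil-like (12 of 18 above 0) and 0.20 in classical monocyte-like cells (16 of 18). They were -0.05 in T-like (7 of 19) and 0.04 in alveolar macrophage-like cells (12 of 20).

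The integrins were compared between p21mTert and p21Het in 4 leukocyte lineages. In classical monocyte-like cells Itga4 was 425.4 CPM in the WT library, 446.9, 378.6 and 392.1 in the 3 p21Het libraries, 494.1, 488.0, 461.7, 530.4 and 510.8 in the 5 p21mTert libraries, and 431.7 and 517.3 for p21mTertCD. All 5 p21mTert values lay above the 3 p21Het values. The difference was 0.36 ± 0.09 (edgeR, SE) and did not pass after adjustment (adjusted p = 0.319). With DESeq2 it passed (adjusted p = 0.0347), and over the alternatives other than leaving out a library the adjusted p ran from 0.0347 to 0.878. Among the numbered libraries alone the difference was 0.43. In this lineage edgeR called 0 of the 3 integrins, against 0.0751% of 9323 genes, and DESeq2 called 1, beside 31 of these genes. At an unadjusted p under 0.05 edgeR had 1 of the 3, beside 619 of these genes. Of the 3 integrins 1 did not overlap, against 4.42% of all genes.

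In T-like cells Itga4 was 164.2 CPM in the WT library, 212.0, 188.7 and 214.8 in the 3 p21Het libraries, 251.2, 263.2, 274.6, 251.3 and 352.6 in the 5 p21mTert libraries, and 499.1 and 139.8 for p21mTertCD. Every p21mTert value exceeded every p21Het value, whereas the 2 p21mTertCD libraries were the highest and the lowest of all 11. The difference of 0.45 ± 0.29 did not pass (edgeR). The p21mTertCD library with the highest value is the one that had 2303 T-like and 105 B-like cells, and it also had the highest T-like Itgb2 (302.7 CPM) and Itgal (305.3 CPM). The part of T cell subsets in these values was not tested. None of the 3 integrins was called in T-like cells (edgeR 0, DESeq2 0, 0 at an unadjusted p under 0.05 by edgeR). Of 12310 genes edgeR called 0.0162% and DESeq2 called 17, and 600 were at an unadjusted p under 0.05 by edgeR. Of the 3 integrins 1 did not overlap, against 3.61% of all genes.

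Itgal in neutrophil-like cells was 396.1 CPM in the WT library, 381.2, 274.3 and 359.7 in the 3 p21Het libraries, 427.4, 406.2, 409.8, 429.2 and 495.9 in the 5 p21mTert libraries, and 299.8 and 424.1 for p21mTertCD. The p21mTert values were again all above those of p21Het, with a difference of 0.28 ± 0.17 that did not pass (edgeR). Itga4 differed there by 0.36 ± 0.22. Of the 3 integrins 0 were called (edgeR 0, DESeq2 0, 0 at an unadjusted p under 0.05), as of all 8025 genes (0%, with 420 at an unadjusted p under 0.05 and 2 called by DESeq2), and 1 of 3 did not overlap, against 3.71%. In alveolar macrophage-like cells the Itga4 difference was 0.50 ± 0.21 (edgeR, adjusted p = 0.772) and the Itgal difference 0.06 ± 0.15. There 0 of 3 were called by edgeR and by DESeq2, against 0.00956% of 10462 genes by edgeR and 7 genes by DESeq2. At an unadjusted p under 0.05 edgeR had 1 of the 3, beside 619 of these genes. Of the 3 integrins 0 were free of overlap, against 3.28%.

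The Itga4 differences, read in the same libraries in all 4 lineages, were 0.36, 0.45, 0.36 and 0.50 in neutrophil-like, T-like, classical monocyte-like and alveolar macrophage-like cells. For Itga4 the neutrophil-like difference was 0.10 without p21Het library 2 and 0.56 without p21Het library 3, and the alveolar macrophage-like one was 0.0064 with cells gated by marker UMIs. The Itgal differences were 0.28, 0.18, 0.21 and 0.06, and the T-like one was 0.07 without p21mTert library 5. Of 27 other genes for adhesion on the leukocyte side, 22 to 26 were tested in these lineages and 0 passed, with medians of 0.01 in neutrophil-like (23 tested), -0.03 in T-like (26), 0.08 in classical monocyte-like (22) and 0.00 in alveolar macrophage-like cells (22), beside -0.01 to 0.01 over all genes.

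The genes with the most similar pattern were found by Pearson correlation of log2(mean CPM + 1) across 26 lineages among 13765 genes, as a description. Lineages share libraries, and correlations over all lineages follow the large contrast between compartments. Icam2 and Pecam1 were close to each other (r = 0.906), with Gm9889 (0.909) and S1pr1 (0.901) beside Icam2, and Myct1 (0.866) and Adgrl4 (0.857) beside Pecam1. Selp was nearest to Vwf (r = 0.852), a marker used to gate venous-like cells, and then to Sele (0.812) and Apold1 (0.783). Sele was nearest to Tmem255b (r = 0.949), C1qtnf9 (0.911) and Cytl1 (0.907). For Vcam1 the nearest were Nuak1 (r = 0.875), F830016B08Rik (0.869) and Adgrg6 (0.842), and for Icam1 Rnf215 (0.873), Taok2 (0.864) and Rabgap1 (0.852). Itgal was nearest to its partner Itgb2 (r = 0.939), then to Was (0.920) and Ccdc88b (0.916). Itgb2 was nearest to Laptm5 (r = 0.975), Was (0.960) and Vav1 (0.958), and Itga4 to Ptprc (0.939), Dock2 (0.932) and Sash3 (0.928). Laptm5, Was, Ptprc and Dock2 are gate markers of immune cells.

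By GENCODE M21 on GRCm38, Vcam1 lies on chromosome 3 from 116109949 to 116129688 on the minus strand (ENSMUSG00000027962). Icam1 lies on chromosome 9 from 21015985 to 21028817 on the plus strand. Icam2 and Pecam1 lie on chromosome 11, minus strand, from 106377656 to 106388075 and from 106654217 to 106750628. Sele and Selp lie on chromosome 1, plus strand, from 164048234 to 164057677 and from 164115264 to 164150026. Itga4 lies on chromosome 2 from 79255426 to 79333123, Itgb2 on chromosome 10 from 77530252 to 77565708 and Itgal on chromosome 7 from 127296260 to 127335138, all on the plus strand. Genes on the opposite strand overlap Vcam1 (Gm43109), Icam1 (Gm47079), Selp (Gm16587 and Gm16548) and Itga4 (Cerkl). Whether the counting used the strand is not given in the sources used here, so reads of such partners cannot be told apart.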

How the data were processed

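Single-cell 3' RNA libraries of 11 mouse lung samples were deposited as tables of UMI counts per gene and barcode. The authors' values are raw counts, with no normalization, per the file headers and the values; reads were mapped to mm10 with Cell Ranger per the submitters' processing notes, and the version named in the labels differs from the software version 3.1.0 in the file headers. Filters on UMIs and mitochondrial share follow the limits the design text gives. A cell was given a compartment when at least 3 of its markers and at most 2 of any other compartment's were detected, with a lead of 2, and then the lineage with the highest share of at least 2 detected markers. Cells with more than 2 markers of a second compartment (3010 cells) stayed unassigned, and no doublet caller was run.

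UMIs were summed per library and lineage. Group contrasts used edgeR 4.0.16 (filterByExpr, TMM, quasi-likelihood) over 10 libraries, fitted across all genes with Benjamini-Hochberg adjustment; WT has 1 library and entered no group contrast. Lineages were compared within libraries by 2-sided exact sign-flip permutation tests on log2(CPM + 1), a pseudocount of 1 CPM, which understates changes of low genes. The smallest unadjusted p is 0.00098 with 11 libraries, 0.00195 with 10 and 0.00391 with 9. Shares of cells were also computed after thinning to 1000 UMIs. Both tests were tested on simulated data. Alternatives were DESeq2 1.42.0, no count filter, other gates and cell filters, the replicate number as a block, other pseudocounts, and leaving out libraries. The genes and lists were chosen with earlier results of these data known, and the venous-like fit and the looser motif after levels or sequences were seen. The naming rule took all 9 genes, the 3 genes nearest to each in pattern, and list genes only if called. Depth limits the rare lineages: libraries gave 23 to 105 venous-like cells.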

Additional observations from a re-analysis of the deposited data

Results flagged for a closer look

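Dixon's criterion was applied to the 5 p21mTert libraries only, and the smaller groups of the other genotypes were not checked. Of 53 such sets of values, 1 for each gene and lineage, 9 held a library far from the others. The chance rate of about 1 in 20 holds for independent, normal values. Some of these sets hold counts near 0 and some share cells, so the number flagged cannot be compared with it. In gCap-like cells Sele was 25.93 CPM in p21mTert library 4 and 0 to 0.42 CPM in the other 4 p21mTert libraries. All 58 of these UMIs came from 1 of 563 cells. In the lymphatic-like cells of the same library Vcam1 was 62.1 CPM (16 UMIs, 14 of them in 1 cell) and Sele was 38.81 CPM (10 UMIs in 1 cell), against at most 9.32 CPM in the other p21mTert libraries for either gene. In aCap-like cells Vcam1 was 1.98 CPM in p21mTert library 3 and Selp was 1.43 CPM in p21mTert library 4, each from 1 UMI, with 0 in the other p21mTert libraries. Pecam1 in lymphatic-like cells was 670.89 CPM in p21mTert library 1, from 21 cells, and 543 to 564 CPM in the others. The remaining 3 values belong to integrins of p21mTert library 5: Itgal was 495.93 CPM in neutrophil-like cells (406 to 429 in the others), Itga4 was 352.62 CPM in T-like cells (251 to 275) and Itgal was 250.45 CPM in T-like cells (165 to 179).

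Icam1 differed between p21mTert and p21Het in opposite directions, without overlap, in 2 lineages. In aCap-like cells every p21mTert library was below both p21Het libraries with enough cells (mean 686 against 869 CPM, log2 ratio -0.341), while p21Het library 3, left out with 11 cells, was at 445.8 CPM, below every p21mTert library. In AT2-like cells every p21mTert library was above all 3 p21Het libraries (mean 275 against 238 CPM, log2 ratio 0.209). The difference between the 2 lineages was not tested. Of 152 pairs of a gene and a lineage compared in this way, 6 (3.95%) had no overlap. The share over all genes of at least 10 CPM was taken only in the lineages that hold these 6 pairs, while the 3.95% covers other lineages too. This share without overlap was 8.1% in aCap-like, 3.1% in AT2-like, 1.92% in B-like, 3.26% in T-like, 4.64% in classical monocyte-like and 4.35% in neutrophil-like cells. The 4 others are Itga4 in T-like and in classical monocyte-like cells, Itgal in neutrophil-like cells, and Vcam1 in B-like cells, which was 2.12 CPM in p21mTert and 0.687 CPM in p21Het and so lies under the level of the genes behind the B-like share.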

How the results depend on the processing

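Over settings other than leaving out a library, 280 of 306 values of the paired lineage differences and 256 of 270 of the group contrasts kept their direction and their side of the threshold. With libraries left out 1 at a time, 406 of 429 and 295 of 300 did. The Vcam1, Sele and Selp differences of venous-like against gCap-like cells kept theirs under every setting run. Requiring at least 50 cells left 3 libraries for arterial-like cells, too few for the exact test to pass (smallest p 0.25), and 11 endothelial tests of 18 passed in place of 20 of 24. Gating by marker UMIs likewise left arterial-like cells in 3 libraries. It turned lymphatic-like minus gCap-like for Vcam1 (3.63) and Icam1 (0.76) and classical monocyte-like minus alveolar macrophage-like for Itgal (-0.12). It also brought Sele (3.76) and Selp (4.79) in lymphatic-like cells past the threshold, while Selp in aCap-like minus gCap-like cells (-0.21) no longer passed. The cause was not tested. Other reversals, of differences not passing in the report, were Sele in lymphatic-like cells with a pseudocount of 0.1 (-0.19), in the numbered libraries (-0.46) and with 1 more marker (-1.06); Selp there with a pseudocount of 0.1 (-0.057); Pecam1 in arterial-like cells in the numbered libraries (0.013); and Itgb2 in NK-like cells over every barcode (-0.025). With single libraries left out, 3 of these differences changed sign: Sele in lymphatic-like cells ranged from -0.40 to 0.43, Selp there from -0.032 to 0.99, and Itgal in classical monocyte-like cells from -0.041 to 0.049. In the p21mTert minus p21Het contrast 4 did: Sele ranged from -1.29 to 0.038 and Selp from -0.94 to 0.077 in endothelial-like cells, Icam1 from -0.39 to 0.50 in gCap-like cells and Itgal from -0.0091 to 0.18 in alveolar macrophage-like cells. Leaving out 1 library moved 17 of the 30 differences between genotypes by over 1.5 times or turned their sign.

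For the group contrasts, 0 endothelial genes called became 1 with no filter on low counts in endothelial-like cells, both for p21mTert minus p21Het and for p21mTert minus p21mTertCD (Vcam1, edgeR adjusted p of 0.0252 and 0.000646), 1 in gCap-like and 2 in venous-like cells for p21mTert minus p21mTertCD, where 0.32%, 0.734%, 0.868% and 0.207% of all genes were called, and DESeq2 called 1 integrin in classical monocyte-like cells, with 0.333% of all genes. Over all non-leave-out settings the adjusted p of Vcam1 in endothelial-like cells ran from 0.00744 to 1.00 and from 4.96e-05 to 0.465. A replicate block over the 8 numbered libraries, with 1 residual degree of freedom, gave 3 calls of 6 for p21mTert minus p21Het (Vcam1 -0.73, Sele -0.79, Selp -0.89), 2 for p21mTert minus p21mTertCD and 1 for p21mTertCD minus p21Het in endothelial-like cells, with 0.763%, 0.934% and 0.539% of all genes called. Deviations of same-numbered libraries from their group means correlated at -0.032, -0.124, -0.155 and -0.0068. The 2 numbered libraries of p21Het mirror each other around their mean, as do the 2 of p21mTertCD. These values therefore cannot decide whether the numbers pair the samples. Sele in endothelial-like cells for p21mTert minus p21mTertCD (-0.21) turned to 0.78 with the replicate block, 0.0049 in the numbered libraries and 0.23 over every barcode. Without single libraries that Sele difference ran from -0.57 to -0.0035. Itgal in alveolar macrophage-like cells was -0.0012 in the numbered libraries. Counts over all genes moved more: in endothelial-like cells p21mTert minus p21mTertCD gave 13 genes, 56 with DESeq2, 142 with no filter and 0 to 66 without single libraries.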

Other observations

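Low levels of some of the 9 genes were measured in further lineages. In interstitial macrophage-like cells Selp was 51.9 CPM in the WT library, 0, 2.5 and 0.7 in the 3 p21Het libraries, 2.5, 5.5, 39.9, 52.1 and 0.9 in the 5 p21mTert libraries, and 0 and 23.5 for p21mTertCD. Only 30 of 1514 such cells had a Selp UMI, and 23 of these (76.7%) also had Icam2, against 4.04% of the cells without Selp. Of the 83 cells with Icam2, 27.7% had Selp. Vcam1 was seen in 10.0% of the cells with Selp and in 59.2% of the others, although the cells with Selp were deeper (median 18237 against 11106 UMIs). These shares have no test, and the part of depth in them was not tested. The 8 platelet markers summed to 523 to 2916 CPM in this lineage, of which Pf4 alone gave 516 to 2906 CPM, and the 7 others summed to 4.72 to 24.5 CPM, with Gp1bb at 0 in all 11 libraries. Their part in the Selp values was not tested.

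Itgal was 21.9 to 36.2 CPM in the ciliated-like cells of all 11 libraries, while Itgb2, the subunit it pairs with, was 0 to 4.1 CPM there. Itga4 was 19.5 to 87.1 CPM in the mural-like cells of the 9 libraries with at least 20 of them, with a mean of 48.1 CPM, and 2.24 CPM on average in venous-like cells.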
